A study of Homo sapiens with 9 samples.

Results

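The collagen hydroxylases and lysyl oxidases comprised 10 genes, chosen by gene symbol from the 58735 genes of the count table. They were 6 hydroxylases that depend on 2-oxoglutarate (P4HA1, P4HA2, P4HA3, PLOD1, PLOD2 and PLOD3) and 4 copper-dependent oxidases (LOX, LOXL1, LOXL2 and LOXL4). Transcripts were measured by RNA sequencing in U87, a human glioblastoma cell line, in 3 groups of 3 libraries. One group stably overexpressed IDH1mt C269S (C269S below), the R132H mutant of isocitrate dehydrogenase 1 with a serine in place of a cysteine. Another stably overexpressed the R132H mutant itself (IDH1mt), and the reference cells carried the vector control (PCDH). All cells kept their own IDH1, and no group overexpressed IDH1 without R132H, so that change and a higher IDH1 dose cannot be told apart. The labels give neither the number of lines or clones per construct nor whether replicates were cultured separately. The p-values therefore rest on a spread between libraries that could be technical, and a difference between groups cannot be told apart from one between selected lines. The series concerns autopalmitoylation of the R132H enzyme, which RNA sequencing does not measure. Only C269S against IDH1mt compares that enzyme with and without the cysteine change. An effect through palmitoylation cannot be told apart there from other effects of the change.

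Collagen chains are modified in the endoplasmic reticulum before they leave the cell. Prolyl 4-hydroxylase, a complex of a catalytic alpha subunit (P4HA1, P4HA2 or P4HA3) with the disulphide isomerase P4HB, hydroxylates prolines and so stabilises the triple helix. The lysyl hydroxylases PLOD1, PLOD2 and PLOD3 hydroxylate lysines that later carry sugars or cross-links. Both families use iron, ascorbate, oxygen and 2-oxoglutarate, the substance that R132H IDH1 converts to 2-hydroxyglutarate. Outside the cell, LOX and its relatives use copper to oxidise lysines and hydroxylysines of collagen and elastin, which starts the covalent cross-links of the fibre. P4HA1, P4HA2, PLOD2, LOX and LOXL2 are textbook targets of hypoxia-inducible factors.

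Library totals lay between 19108925 and 24803711 counts, of which the 10 genes took 0.554% to 0.624%. IDH1 stood at 739 ± 30.3 CPM in C269S, 677 ± 16.5 CPM in IDH1mt and 110.6 ± 7.97 CPM in PCDH (CPM are counts scaled to library size by trimmed means; SD, n = 3 each), so it sets PCDH apart but not the mutants from each other. The mesenchymal and neural markers VIM, FN1, CD44 and NES had mean FPKM (fragments scaled to transcript length and library size) of 11.3 or more in every group, whereas GFAP, an astrocyte marker, stayed at 0.356 FPKM or below and SOX2 at 0.0526 or below in each library. Of the other glial markers, S100B stayed at 0.221 FPKM or below. OLIG2 was detected at means of 2.78 FPKM in C269S, 2.1 FPKM in IDH1mt and 2.37 FPKM in PCDH. FN1 was higher in C269S and IDH1mt than in PCDH (log2 fold change 0.45 and 0.22, adjusted p = 5.55e-07 and 0.00194) and higher in C269S than in IDH1mt (0.23, adjusted p = 0.00393; 0.0917 without IDH1mt replicate 1). CD44 was higher in both mutants (0.21 and 0.33, adjusted p = 0.0124 and 4.49e-06), but in C269S not without C269S replicate 1 or 2 or PCDH replicate 1 or 2. VIM was called lower in IDH1mt (-0.16, adjusted p = 0.0195), but not without any 1 IDH1mt library or PCDH replicate 1. Summed over 10 markers of immune, endothelial, epithelial, oligodendrocyte and neuronal cells, the level was 1.64 to 1.79 FPKM in C269S, 1.70 to 1.98 FPKM in IDH1mt and 1.39 to 1.41 FPKM in PCDH, with CD3E at 0 counts in all 9 libraries. Their part in the results was not tested. PCDH replicate 3 stood apart somewhat, since its counts differed from those of the other PCDH libraries by a chi-square of 10.2 and 10.95 per gene, against 3.69 to 6.36 in the other pairs of libraries within a group.

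The members spanned more than 3 orders of magnitude per length in the deposited FPKM values. LOXL2, an oxidase with scavenger receptor domains, was the highest member in each group, with a mean of 342 ± 15.6 FPKM in C269S, 392.4 ± 6.26 FPKM in IDH1mt and 364 ± 13.4 FPKM in PCDH. PLOD2 came next, at 135 ± 8.63 FPKM in C269S, 180 ± 5.88 FPKM in IDH1mt and 143 ± 11.4 FPKM in PCDH. Then followed, in PCDH, LOX (129 ± 12.3), PLOD1 (111 ± 1.59), LOXL1 (109.5 ± 2.80), P4HA1 (95.1 ± 5.62), P4HA2 (81.9 ± 1.16) and PLOD3 (28.0 ± 0.867). LOXL4 (2.36 ± 0.119 FPKM in PCDH) and P4HA3 (0.110 ± 0.0537 FPKM) closed the order. The libraries of PLOD2 and LOX overlapped in PCDH, as did those of PLOD1 and LOXL1, and in C269S the libraries of LOX, LOXL1 and P4HA1 ran into each other. In IDH1mt no neighbours in the order overlapped. There P4HA1 stood in place 3 with 114 ± 3.84 FPKM and LOXL1 in place 7 with 60.2 ± 2.11 FPKM, whereas in PCDH they held places 6 and 5.

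**Figure D1:**
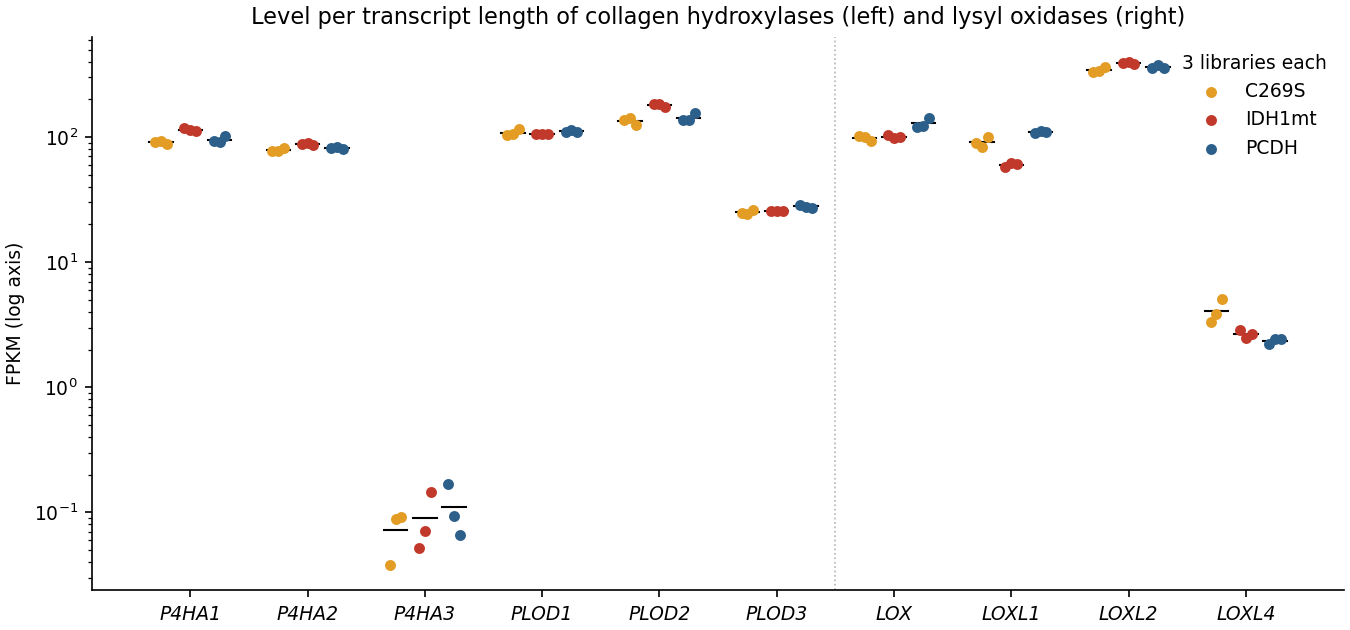
FPKM of the 10 members on a log axis, with 1 point per library, a black line at the mean of 3 libraries, and the groups C269S, IDH1mt and PCDH from left to right. LOXL2 lies highest at 332 to 399 FPKM and P4HA3 lowest at 0.0379 to 0.170 FPKM, and the drop of LOXL1 to 58.0 to 62.2 FPKM in IDH1mt is the clearest shift.

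Tests across groups used the quasi-likelihood fit of edgeR over all 16874 genes with enough counts, and a gene was called at a Benjamini-Hochberg adjusted p under 0.05. Of the 10 members 9 were tested. P4HA3, with 3 to 14 counts per library, fell under the filter on low counts. Between IDH1mt and PCDH 4 members were called, where 14.1% of all genes tested were. These were P4HA1 and PLOD2 higher and LOX and LOXL1 lower, set against 7.18% of all genes called higher and 6.90% called lower. In bulk RNA, fewer cells with a transcript and less of it per cell cannot be told apart. Sequences upstream of a RefSeq start site of these 4 genes are shown because the genes moved in opposite directions and because P4HA1, PLOD2 and LOX are known hypoxia targets. The windows of PLOD2 and LOXL1 lie within the gene spans of the count table, and those of P4HA1 and LOX lie partly within them. All 4 start sites thus lie inside the counted genes. Each line gives the 250 bases before the RefSeq start site (GRCh38.p14), 5′ to 3′ on the strand of the gene. Capitals mark ACGTG or GCGTG, the core of the element bound by hypoxia-inducible factors, or their reverse complements CACGT and CACGC. No marked runs overlapped.
P4HA1 (chr10:73096867-73097116, minus strand): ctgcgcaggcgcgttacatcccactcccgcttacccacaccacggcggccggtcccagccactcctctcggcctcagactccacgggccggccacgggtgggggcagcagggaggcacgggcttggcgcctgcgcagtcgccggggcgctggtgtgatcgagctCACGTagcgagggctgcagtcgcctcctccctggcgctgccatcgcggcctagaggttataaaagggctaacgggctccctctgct
PLOD2 (chr3:146161185-146161434, minus strand): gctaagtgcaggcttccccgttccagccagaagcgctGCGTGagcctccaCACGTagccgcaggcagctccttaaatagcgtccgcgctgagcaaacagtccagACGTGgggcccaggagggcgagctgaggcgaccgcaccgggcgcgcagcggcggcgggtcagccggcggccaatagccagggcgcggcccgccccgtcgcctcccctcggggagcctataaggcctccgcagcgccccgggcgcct
LOX (chr5:122078260-122078509, minus strand): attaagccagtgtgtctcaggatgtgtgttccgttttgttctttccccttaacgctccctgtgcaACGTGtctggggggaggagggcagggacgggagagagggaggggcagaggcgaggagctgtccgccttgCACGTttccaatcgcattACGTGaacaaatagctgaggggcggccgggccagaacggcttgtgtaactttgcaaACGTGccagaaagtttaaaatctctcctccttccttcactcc
LOXL1 (chr15:73926212-73926461, plus strand): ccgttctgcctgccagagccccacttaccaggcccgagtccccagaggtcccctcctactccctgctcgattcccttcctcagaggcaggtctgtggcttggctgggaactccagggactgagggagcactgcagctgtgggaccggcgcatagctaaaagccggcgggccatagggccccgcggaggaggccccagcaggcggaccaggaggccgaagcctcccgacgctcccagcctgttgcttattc

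The window of P4HA1 held 1 match, that of PLOD2 held 3, that of LOX held 4 and that of LOXL1 held none. The table lists 2 more start sites for LOX, whose windows overlap each other, lie within the gene and held the same 2 matches. Of 35116 windows of the same length in the RefSeq table, 43.2% held at least 1 match and 19.4% held 2 or more. These windows were not matched for their share of G and C. In the windows shown that share was 70.0% for P4HA1, 72.4% for PLOD2, 55.2% for LOX and 66.8% for LOXL1. Windows were listed for 8 members, all but P4HA3 and LOXL2. Of the listed members not shown, PLOD1 had 2 matches, and P4HA2, PLOD3 and LOXL4 had none in these letters. The windows of PLOD1, P4HA2 and PLOD3 also lie within the gene spans of the count table, and that of LOXL4 lies partly within its span. Of the genes called lower in both mutants, LOX had 4 matches in the window shown and LOXL1 none. P4HA1 and PLOD2, higher in IDH1mt, had 1 and 3. Whether matches bear on these changes was not tested. A match is a run of letters only, and binding was not measured.

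Among the prolyl 4-hydroxylase subunits, P4HA1 was higher in IDH1mt than in either other group. P4HA1 (ENSG00000122884, chromosome 10, 73007217 to 73096974 on GRCh38) had 283, 288 and 275 CPM in C269S, 369, 354 and 346 CPM in IDH1mt, and 290.4, 284 and 316 CPM in PCDH. All 3 IDH1mt libraries lay above the other 6, while C269S and PCDH overlapped. P4HA1 rose 1.20-fold in IDH1mt against PCDH (0.26 ± 0.05 SE on the log2 scale, adjusted p = 0.000969) and fell by 0.34 on the log2 scale in C269S against IDH1mt (SE 0.05, adjusted p = 0.000104). Between C269S and PCDH its log2 difference was -0.08 (95% interval -0.19 to 0.04, adjusted p = 0.641), so no change was detectable at this spread. Leaving out PCDH replicate 3, the highest PCDH library for P4HA1, gave 0.31 in place of 0.26.

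P4HA2 (ENSG00000072682, chromosome 5, 132191838 to 132295315), another catalytic subunit, had 660.0, 661 and 696 CPM in C269S, 754, 763 and 744 CPM in IDH1mt, and 703, 713 and 692.5 CPM in PCDH. As for P4HA1, the IDH1mt libraries lay highest and C269S overlapped PCDH, with smaller gaps. P4HA2 had a log2 difference of 0.10 in IDH1mt against PCDH (adjusted p = 0.185) and of -0.06 in C269S against PCDH (adjusted p = 0.659). It was called lower in C269S against IDH1mt (-0.16 ± 0.05 SE on the log2 scale, adjusted p = 0.0441). That call was lost when any 1 IDH1mt library, C269S replicate 1 or 2, or PCDH replicate 1 was left out (adjusted p = 0.0526 to 0.193), and with scaling by library size alone (adjusted p = 0.0921). Without the filter on low counts the call was lost too (adjusted p = 0.139). P4HA3 (ENSG00000149380, chromosome 11, 74235801 to 74311657) had 3, 7 and 8 counts in C269S, 5, 7 and 11 counts in IDH1mt, and 14, 9 and 6 counts in PCDH. The groups overlapped, and at this depth no difference was detectable (unadjusted p between 0.434 and 0.727 in edgeR without the filter).

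Among the lysyl hydroxylases, PLOD2 moved and its relatives were not called. PLOD2 (ENSG00000152952, chromosome 3, 146069440 to 146163653), which hydroxylates lysines in the telopeptides of collagen, had 1061, 1088.5 and 962 CPM in C269S, 1415, 1402 and 1332 CPM in IDH1mt, and 1051, 1049 and 1199 CPM in PCDH. All IDH1mt libraries again lay above the other 6, and C269S and PCDH overlapped. PLOD2 rose 1.26-fold in IDH1mt against PCDH (0.33 ± 0.06 SE on the log2 scale, adjusted p = 7.92e-05) and fell by 0.42 on the log2 scale in C269S against IDH1mt (SE 0.06, adjusted p = 5.43e-06). In C269S against PCDH the log2 difference was -0.08 (95% interval -0.20 to 0.03, adjusted p = 0.595), and it was -0.02 without PCDH replicate 3, the highest PCDH library for this gene too.

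PLOD1 (ENSG00000083444, chromosome 1, 11934205 to 11975538), which acts mainly on lysines of the helix, spanned 553 to 621 CPM in C269S, 561 to 566 CPM in IDH1mt and 592 to 606 CPM in PCDH. The 3 differences of PLOD1 lay between -0.08 and 0.04 on the log2 scale, with adjusted p-values of 0.339 to 0.801. PLOD3 (ENSG00000106397, chromosome 7, 101205977 to 101218420), a lysyl hydroxylase that also transfers sugars to hydroxylysine, spanned 139 to 149 CPM in C269S, 145 to 146 CPM in IDH1mt and 155 to 166 CPM in PCDH. Both mutants lay below PCDH in every library. PLOD3 did not pass the test in C269S against PCDH (log2 difference -0.16, 95% interval -0.28 to -0.04, adjusted p = 0.185) or in IDH1mt against PCDH (-0.14, 95% interval -0.25 to -0.02, adjusted p = 0.123). Scaled by library size alone, PLOD3 was called lower in IDH1mt against PCDH (adjusted p = 0.0256).

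Among the oxidases, LOX was lower in both mutants and LOXL1 lowest in IDH1mt. LOX (ENSG00000113083, chromosome 5, 122063195 to 122078360), the founding member of the family, had 566, 563 and 518 CPM in C269S, 578, 546 and 555 CPM in IDH1mt, and 678, 684 and 798 CPM in PCDH. The mutants overlapped each other and both lay below all PCDH libraries. LOX fell by 0.39 on the log2 scale in C269S against PCDH (SE 0.06, adjusted p = 9.22e-05) and by 0.36 in IDH1mt against PCDH (SE 0.06, adjusted p = 3.38e-05). Between C269S and IDH1mt the log2 difference was -0.03 (95% interval -0.15 to 0.09, adjusted p = 0.868). Without PCDH replicate 3, the highest library for LOX, the log2 fold changes were -0.31 in C269S and -0.28 in IDH1mt, and both stayed called.

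LOXL1 (ENSG00000129038, chromosome 15, 73925989 to 73952137), an oxidase known for its role in elastic fibres, showed the largest change of the 9 members tested in IDH1mt against PCDH. Its libraries had 328, 302 and 367 CPM in C269S, 212, 227 and 222 CPM in IDH1mt, and 393, 412 and 401 CPM in PCDH. The 3 groups did not overlap, with C269S between IDH1mt and PCDH. LOXL1 fell by 0.87 on the log2 scale in IDH1mt against PCDH (SE 0.06, adjusted p = 2.4e-12), 1.83-fold lower. It was 1.51-fold higher in C269S than in IDH1mt (0.59 ± 0.06 SE on the log2 scale, adjusted p = 2.48e-08). In C269S against PCDH it fell by 0.27 (SE 0.06, adjusted p = 0.0114), a call lost without C269S replicate 1, C269S replicate 2 or PCDH replicate 2 (adjusted p = 0.0915, 0.179 and 0.0685). The same call was lost with limma on log2(FPKM + 1) or log2(FPKM + 0.1) (adjusted p = 0.134 and 0.128).

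LOXL2 (ENSG00000134013, chromosome 8, 23297189 to 23425328), which cross-links collagen IV of basement membranes, had 1908, 1922 and 2069 CPM in C269S, 2254, 2286 and 2216 CPM in IDH1mt, and 2053, 2184 and 2055 CPM in PCDH. IDH1mt lay highest, and C269S overlapped PCDH. The log2 difference was -0.09 in C269S against PCDH (95% interval -0.19 to 0.01, adjusted p = 0.456) and 0.10 in IDH1mt against PCDH (95% interval 0.00 to 0.20, adjusted p = 0.171). LOXL2 was called lower in C269S against IDH1mt (-0.20 ± 0.05 SE on the log2 scale, adjusted p = 0.0124). This call was lost without replicate 1 or 2 of either mutant (adjusted p = 0.0684 to 0.103). It was also lost with limma on log2(FPKM + 1) or log2(FPKM + 0.1) (adjusted p = 0.0688 and 0.0708).

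LOXL4 (ENSG00000138131, chromosome 10, 98247690 to 98268250), the scarcest oxidase measured with 167 to 403 counts per library, was higher in C269S than in PCDH, where LOXL1 was lower, and both were higher in C269S than in IDH1mt. Its libraries had 12.2, 14.1 and 18.5 CPM in C269S, 10.5, 9.14 and 9.81 CPM in IDH1mt, and 8.21, 8.98 and 8.87 CPM in PCDH. All C269S libraries lay above the other 6, with replicate 3 the highest. LOXL4 rose 1.72-fold in C269S against PCDH (0.78 ± 0.14 SE on the log2 scale, adjusted p = 0.0013) and 1.53-fold against IDH1mt (0.61 ± 0.14 SE on the log2 scale, adjusted p = 0.00585). The second call was lost without C269S replicate 3 (log2 fold change 0.42, adjusted p = 0.112). With limma on log2(FPKM + 1) or log2(FPKM + 0.1) both calls were lost (adjusted p = 0.0783 and 0.0633 against PCDH, 0.0812 and 0.0751 against IDH1mt). In IDH1mt against PCDH the difference of 0.17 was not called (95% interval -0.12 to 0.47, adjusted p = 0.481).

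**Figure D2:**
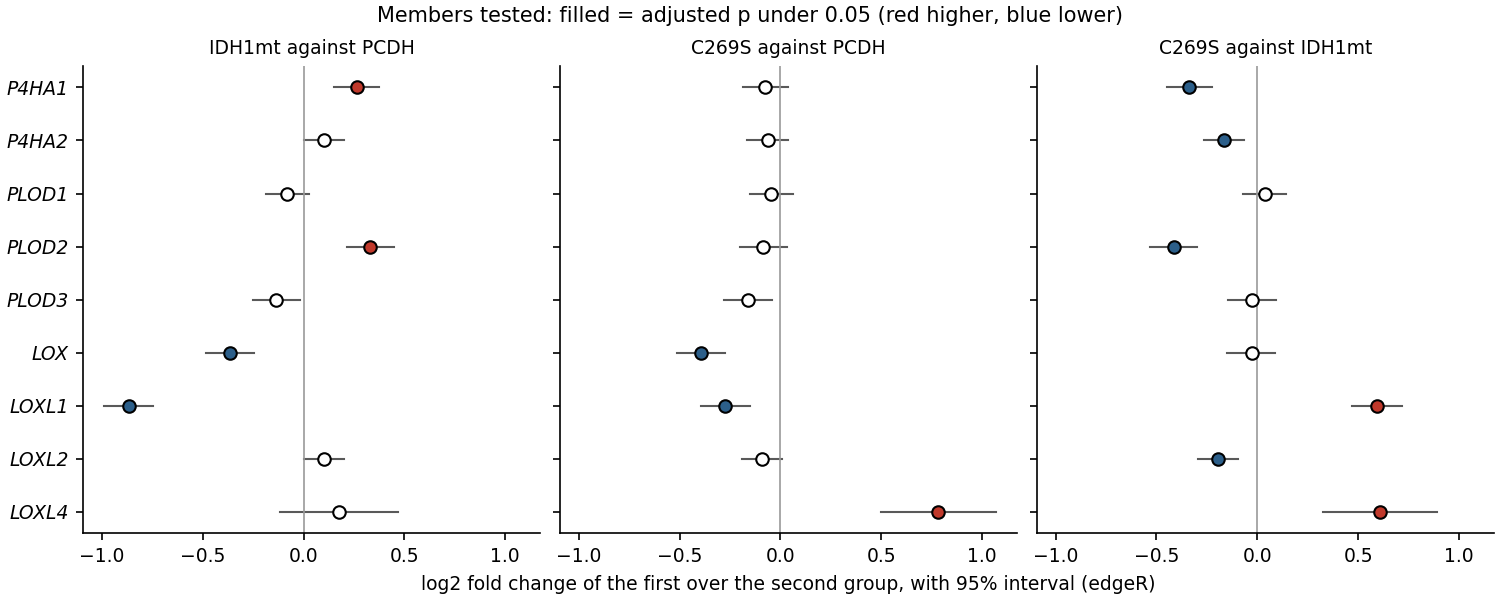
Log2 fold change of the 9 tested members in 3 comparisons, first group over second, with 95% intervals from edgeR; filled points passed an adjusted p under 0.05, red for higher and blue for lower. P4HA1 and PLOD2 lie at 0.26 and 0.33 in IDH1mt against PCDH and at -0.34 and -0.42 in C269S against IDH1mt, LOX lies near -0.4 in both mutants against PCDH, and LOXL4 is highest in C269S.

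The calls of the hydroxylases and oxidases are given side by side, and no test compared the 2 classes. In IDH1mt against PCDH 2 hydroxylases were higher and 2 oxidases lower, where 7.18% of all genes tested were higher and 6.90% lower. In C269S against PCDH 1.42% of all genes tested were called, 0.883% higher and 0.533% lower. There 1 oxidase was higher and 2 were lower. Of the 5 tested hydroxylases 0 were called there in edgeR, DESeq2 or limma-voom, and 1 of them, PLOD3, had an unadjusted p under 0.05. In C269S against IDH1mt 4.90% of all genes were called, 2.29% higher and 2.61% lower. There 3 hydroxylases and 1 oxidase were lower and 2 oxidases were higher. Few members differed by over 1.5-fold in the estimate and were called. In IDH1mt against PCDH LOXL1 was lower by that much and 0 members higher, where 1.54% of genes tested were lower and 2.33% higher. LOXL4 was higher by that much in C269S against PCDH and 0 members lower (0.190% and 0.101% of genes), and in C269S against IDH1mt LOXL1 and LOXL4 were higher and 0 members lower (0.450% and 0.759%). The median log2 fold change of the 5 hydroxylases was 0.10 in IDH1mt against PCDH, -0.08 in C269S against PCDH and -0.17 in C269S against IDH1mt. For the 4 oxidases it was -0.13, -0.18 and 0.28 in the same order, beside medians between -0.01 and 0.00 over all genes tested. These comparisons share libraries and are not independent of each other. Counting every tested member, 9 of 9 had CPM that did not overlap between IDH1mt and PCDH (29.2% of all genes tested), 4 of 9 between C269S and PCDH (15.2%) and 6 of 9 between C269S and IDH1mt (23.6%).

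Ratios between members within a library do not depend on library scaling. The PLOD2 to PLOD1 ratio of FPKM was 1.34, 1.34 and 1.08 in C269S, 1.76, 1.72 and 1.64 in IDH1mt, and 1.23, 1.20 and 1.41 in PCDH. The P4HA1 to P4HA2 ratio was 1.15 ± 0.0580 in C269S, 1.30 ± 0.0402 in IDH1mt and 1.16 ± 0.0836 in PCDH. IDH1mt libraries were the highest for both ratios, without overlap. The LOXL1 to LOX ratio was 0.885, 0.820 and 1.08 in C269S, 0.560, 0.634 and 0.610 in IDH1mt, and 0.884, 0.918 and 0.767 in PCDH, lowest in IDH1mt. LOXL2 made up 63.1% to 64.5% of the summed FPKM of the 4 oxidases in C269S, 70.4% to 71.0% in IDH1mt and 58.4% to 61.6% in PCDH. The 6 hydroxylases summed to 437 ± 3.82 FPKM in C269S, 514 ± 9.82 FPKM in IDH1mt and 459 ± 14.9 FPKM in PCDH, and the 4 oxidases to 536 ± 19.9, 556 ± 6.40 and 605 ± 17.1 FPKM in the same groups. Their ratio was 0.817 ± 0.0316 in C269S, 0.924 ± 0.00999 in IDH1mt and 0.759 ± 0.0241 in PCDH, with no overlap of libraries. The sums were formed over the listed members and carry no test.

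**Figure D3:**
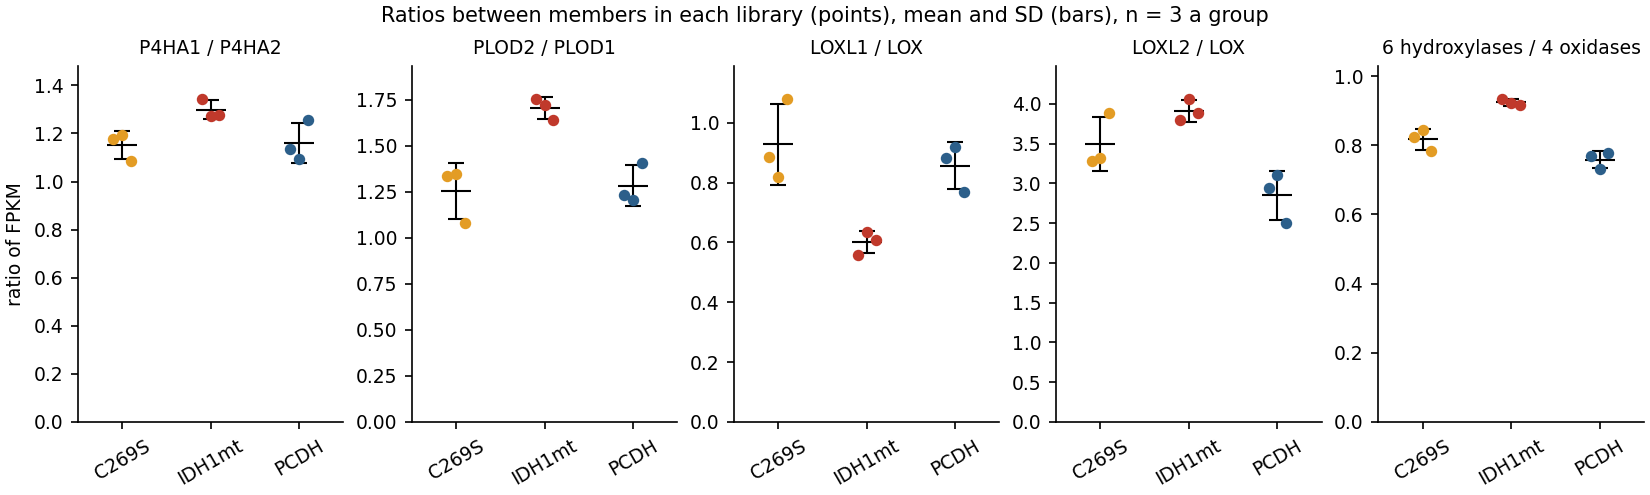
Ratios of FPKM between members in each library, with 1 panel per ratio, groups C269S, IDH1mt and PCDH from left to right, points for libraries and bars for mean and SD (n = 3 a group). IDH1mt libraries lie highest for PLOD2 over PLOD1 (1.64 to 1.76) and lowest for LOXL1 over LOX (0.560 to 0.634).

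The other genes of collagen maturation were read from a list of 22, of which 20 could be tested. In IDH1mt against PCDH 5 were higher and 4 lower (7.18% and 6.90% of all genes tested), with a list median of 0.11. P4HB, the partner of the P4HA subunits, was 1792 ± 80.0 CPM in C269S, 2078 ± 35.6 CPM in IDH1mt and 1711 ± 16.2 CPM in PCDH. Like P4HA1, it rose in IDH1mt against PCDH (0.28 ± 0.05 SE on the log2 scale, adjusted p = 7.55e-05) and was lower in C269S against IDH1mt (-0.21, SE 0.05, adjusted p = 0.00492). The second call was lost without C269S replicate 1 or 2 (adjusted p = 0.054 and 0.0502). P3H1 and P3H2, which hydroxylate prolines at another position, and MIA3, which loads collagen into carriers for export, had log2 fold changes of 0.17, 0.22 and 0.22 in IDH1mt against PCDH (adjusted p = 0.0355, 0.0432 and 0.0088). P3H1 lost its call without any 1 IDH1mt library or PCDH replicate 1 or 2, P3H2 without any 1 of 7 libraries (all but C269S replicate 3 and PCDH replicate 1), and MIA3 without IDH1mt replicate 2. COLGALT2, a collagen galactosyltransferase with means of 2.28 CPM in IDH1mt and 1.07 CPM in PCDH, was called higher too, but not without IDH1mt replicate 1 or PCDH replicate 1 or 3 (adjusted p = 0.259, 0.0962 and 0.0689).

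The genes called lower in IDH1mt against PCDH were SERPINH1, P3H3, ADAMTS2 and LOXL3. SERPINH1 encodes HSP47, the chaperone that binds the collagen triple helix, and it averaged 271 CPM in C269S, 233 CPM in IDH1mt and 324.5 CPM in PCDH. Its log2 fold change was -0.26 in C269S against PCDH (adjusted p = 0.0182), -0.48 in IDH1mt against PCDH (adjusted p = 6.32e-07) and 0.22 in C269S against IDH1mt (adjusted p = 0.0271). ADAMTS2, which removes the amino-terminal propeptide, averaged 11.3 CPM in C269S, 7.25 CPM in IDH1mt and 16.7 CPM in PCDH, with log2 fold changes of -0.57, -1.20 and 0.63 in the same 3 comparisons (adjusted p = 0.0182, 1.1e-07 and 0.00521). Both genes stood in the order seen for LOXL1, with C269S between the other groups. LOXL3, the oxidase outside the 10 members, fell by 0.25 in C269S against PCDH (adjusted p = 0.0318) and by 0.31 in IDH1mt against PCDH (adjusted p = 0.000672), near LOX in size. P3H3 fell by 0.32 and 0.33 in these comparisons (adjusted p = 0.00973 and 0.000747).

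In C269S against PCDH 4 of the 20 were lower (SERPINH1, ADAMTS2, LOXL3 and P3H3) and MIA3 was higher (log2 fold change 0.25, adjusted p = 0.0205), with a list median of 0.00. Of all genes tested, 0.533% were lower there and 0.883% higher. Limma on log2(FPKM + 1) or log2(FPKM + 0.1) called 0 of the 20 in either direction. Each of these 5 calls was lost without C269S replicate 2 or PCDH replicate 2. C269S replicate 1 and PCDH replicate 1 each ended the calls of SERPINH1, LOXL3, P3H3 and MIA3, C269S replicate 3 ended that of ADAMTS2, and IDH1mt replicates 1 and 3 each ended that of LOXL3 (adjusted p up to 0.227 over all these fits). In C269S against IDH1mt 2 were higher (SERPINH1 and ADAMTS2) and 1 was lower (P4HB), beside 2.29% and 2.61% of all genes tested, with a median of -0.02. SERPINH1 lost that call without any 1 IDH1mt library or C269S replicate 3, and ADAMTS2 without IDH1mt replicate 3 or C269S replicate 1.

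**Figure D4:**
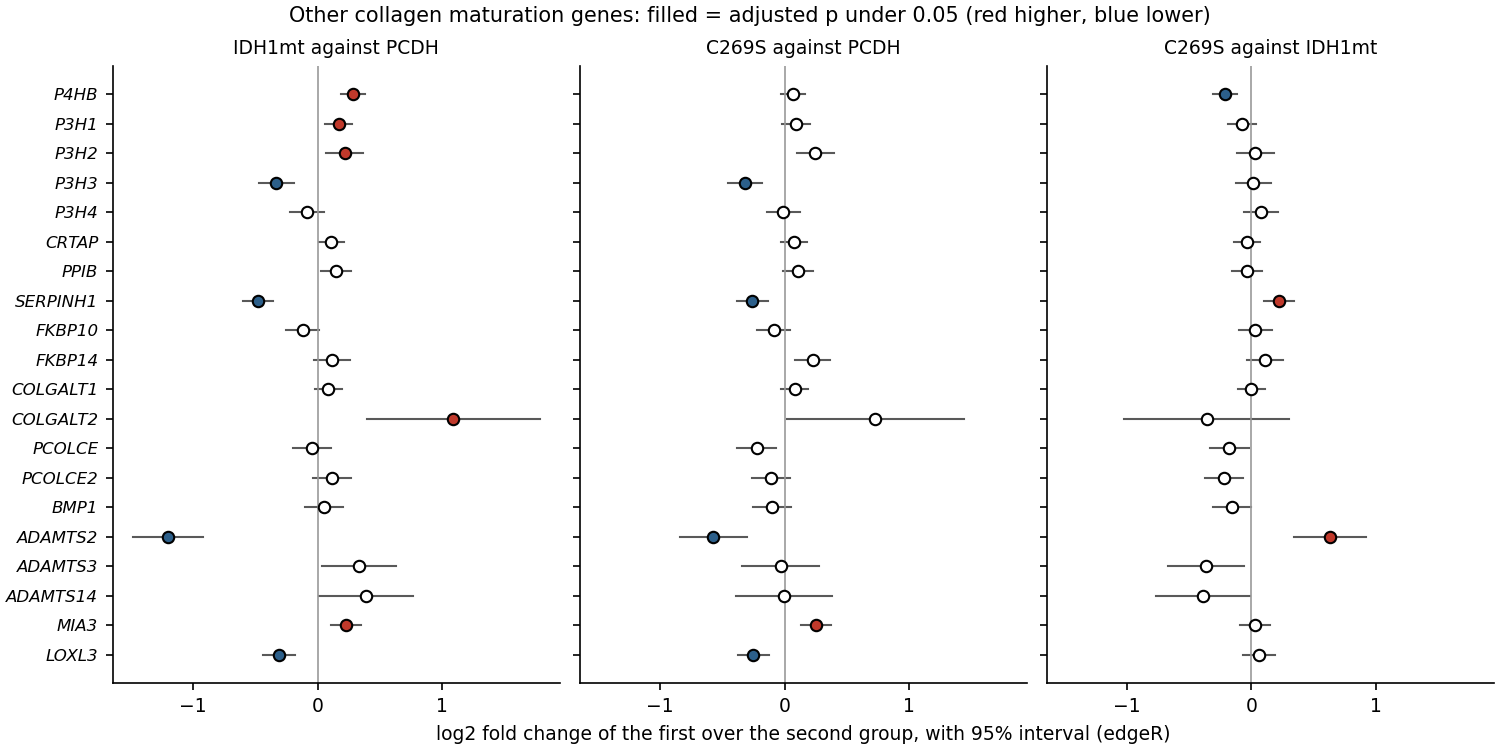
Log2 fold change of the 20 tested genes of the collagen maturation list in 3 comparisons, first group over second, with 95% intervals from edgeR; filled points passed an adjusted p under 0.05, red for higher and blue for lower. P4HB lies at 0.28 in IDH1mt against PCDH and -0.21 in C269S against IDH1mt, and SERPINH1 and ADAMTS2 are lower in both mutants against PCDH.

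Of the substrates of these enzymes, COL1A1, COL1A2 and COL11A1 were lower in both mutants. Of 10 tested fibrillar collagen and elastin genes, 3 were lower in C269S against PCDH (list median -0.29, beside 0.533% of all genes tested) and 5 in IDH1mt against PCDH (list median -0.30, beside 6.90%). Of these 5, COL5A2 (-0.22, adjusted p = 0.0129) lost its call without IDH1mt replicate 3 or PCDH replicate 2 (adjusted p = 0.0974 and 0.0919), and it was not called in C269S against PCDH (-0.06, adjusted p = 0.776). COL1A2, a chain of type I collagen, averaged 1601 CPM in C269S, 1274 CPM in IDH1mt and 2218 CPM in PCDH, and fell by 0.47 and 0.80 on the log2 scale against PCDH (adjusted p = 2.65e-07 and 1.29e-13). COL1A1, the other chain, fell by 0.37 and 0.55 (adjusted p = 5.88e-05 and 3.16e-09). COL11A1, a minor fibrillar chain, averaged only 8.49 CPM in C269S, 6.35 CPM in IDH1mt and 16.6 CPM in PCDH. It fell by 0.96 and 1.37 against PCDH (adjusted p = 7.11e-05 and 1.87e-08). COL5A3 was lower in IDH1mt against PCDH (-0.70, adjusted p = 6.19e-06), was not called in C269S against PCDH (0.02, adjusted p = 0.963) and was higher in C269S against IDH1mt (0.72, adjusted p = 9.39e-06). ELN, elastin, had means of 1.52 to 1.78 CPM and was not called (adjusted p = 0.846 to 0.965). In C269S against IDH1mt COL5A3, COL1A2 (log2 fold change 0.33, adjusted p = 2.52e-05) and COL1A1 (0.19, adjusted p = 0.0343) were called higher, beside 2.29% of all genes tested. COL1A1 lost this call without any 1 IDH1mt library or C269S replicate 2 or 3 (adjusted p = 0.0524 to 0.213).

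Genes that supply cofactors were examined in a list of 10, with 9 tested. In IDH1mt against PCDH 3 were higher and 1 lower (7.18% and 6.90% of all genes tested), and the list median was 0.19. TFRC, the transferrin receptor for iron, averaged 662.5 CPM in C269S, 764 CPM in IDH1mt and 581 CPM in PCDH, and rose by 0.40 on the log2 scale in IDH1mt against PCDH (adjusted p = 2.08e-06). SLC23A2, an ascorbate transporter, rose by 0.46 (adjusted p = 0.00104). ATP7A, the pump that loads copper into secreted oxidases, averaged 22.0 CPM in C269S, 28.8 CPM in IDH1mt and 22.6 CPM in PCDH. It was called higher in IDH1mt against PCDH (0.35, adjusted p = 0.027) but not without any 1 IDH1mt library or PCDH replicate 1 or 2 (adjusted p = 0.0695 to 0.187). CCS, the copper chaperone of superoxide dismutase, was called lower (-0.38, adjusted p = 0.0298), though its libraries overlapped and the call was lost without IDH1mt replicate 2 or 3 or PCDH replicate 1 or 2 (adjusted p = 0.088 to 0.213). In C269S against IDH1mt TFRC (-0.21, adjusted p = 0.0175) and ATP7A (-0.40, adjusted p = 0.0274) were lower, beside 2.61% of all genes tested. Each lost its call without any 1 IDH1mt library or C269S replicate 1 or 3 (adjusted p = 0.053 to 0.173).

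A reference list of 10 hypoxia targets outside the members was set beside P4HA1 and PLOD2. In IDH1mt against PCDH 9 were called higher and CA9 lower (7.18% and 6.90% of all genes tested), with a list median of 0.69. In C269S against IDH1mt 9 were called lower (2.61% of all genes tested), with a median of -0.76. These 9 included CA9, whereas PDK1 was not called there (log2 fold change -0.27, adjusted p = 0.0545). Of those calls, ANKRD37 was lost in IDH1mt against PCDH without IDH1mt replicate 3, C269S replicate 1 or PCDH replicate 1 or 3 (adjusted p = 0.052 to 0.352). In C269S against IDH1mt ANKRD37 was lost without C269S replicate 1 or 2 or IDH1mt replicate 3 (adjusted p = 0.0542 to 0.204), and CA9 without any 1 IDH1mt library or C269S replicate 1 or 2 (adjusted p = 0.0548 to 0.242). SLC2A1, the glucose transporter GLUT1, had a log2 fold change of 1.90 in IDH1mt against PCDH and -1.62 in C269S against IDH1mt, and NDRG1 one of 1.26 and -1.21 (adjusted p of 2.24e-16 or below in all 4 tests). EGLN3, an oxygen-sensing prolyl hydroxylase, had 1.62 and -1.70, and VEGFA, the angiogenic growth factor, 0.74 and -0.83 (adjusted p of 3.3e-10 or below). The log2 fold changes of P4HA1 and PLOD2 in IDH1mt against PCDH, 0.26 and 0.33, lay near those of BNIP3 (0.28) and PDK1 (0.35), the smallest among the 9 called higher. No test compared the list with the members. LOX, also a known target, fell in IDH1mt, as did CA9 (-0.22, adjusted p = 0.0195, a call lost without IDH1mt replicate 2 or 3 or PCDH replicate 1 or 2). In C269S against PCDH CA9 was lower (-0.43, adjusted p = 7.21e-05) and SLC2A1 higher (0.28, adjusted p = 0.018, lost without C269S replicate 3 or PCDH replicate 1), and the list median was -0.09.

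The genes most like 3 members were found by Pearson correlation of log2 CPM over the 9 libraries, among 11608 protein-coding genes. For PLOD2 the closest gene was P4HA1 (r = 0.986), followed by ERO1A, an oxidase of the endoplasmic reticulum that works with disulphide isomerases (r = 0.984), and BNIP3, a mitophagy receptor (r = 0.980). For LOXL1 they were GALNT6 (r = 0.992), LAMA3, a laminin chain (r = 0.987), and GALNT9 (r = 0.985). GALNT6 averaged 29.7 CPM in C269S, 20.3 CPM in IDH1mt and 35.5 CPM in PCDH, the same order of groups as LOXL1. For LOX they were C9orf40 (r = 0.939), LRRK1 (r = 0.937) and ZNF24 (r = 0.937). The 9 points share 3 group means, so these values mostly describe differences between groups, and they carry no test.

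Several members share positions with other genes, and the strand setting of the counts was not given. LOXL1-AS1, antisense to LOXL1 with 25.3% as many counts, averaged 80.7 ± 2.17 CPM in C269S, 82.9 ± 3.51 CPM in IDH1mt and 78.1 ± 3.24 CPM in PCDH and was not called (adjusted p = 0.445 to 0.847), unlike LOXL1. ZNHIT1, on the opposite strand at the start of PLOD3 with 38.6% as many counts, was lower in IDH1mt against PCDH (log2 fold change -0.47, adjusted p = 3.23e-05). Its higher level in C269S against IDH1mt (0.27, adjusted p = 0.0331) lost the call without any 1 library of either group (adjusted p = 0.0604 to 0.161). ENTPD4 overlaps LOXL2 on the same strand with 10.7% as many counts and was not called (adjusted p = 0.721 to 0.893). AC107021.1, an antisense transcript at PLOD2 with 0.248% as many counts, averaged 2.22 CPM in C269S, 4.35 CPM in IDH1mt and 2.09 CPM in PCDH and was called higher in IDH1mt against PCDH (1.07 ± 0.24 SE on the log2 scale, adjusted p = 0.00197). It was lower in C269S against IDH1mt (-0.97, adjusted p = 0.0115), a call lost without IDH1mt replicate 1 or C269S replicate 2. P4HA3 overlaps PPME1, which had 828 to 1105 counts per library against 3 to 14 for P4HA3. For P4HA1, P4HA2 and LOX no overlapping gene reached 2% of the member's count. Reads of overlapping genes cannot be told apart where strand was not used.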

How the data were processed

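The authors deposited a count table of whole reads per gene, made with HISAT2 version 2.0.5 and featureCounts version 1.5.0-p3 on GRCh38, per the submitters' processing notes. The annotation was not given, but all 58735 gene identifiers occur in GENCODE release 29 and all 10 members have the same coordinates there. The deposited FPKM values equal the count over length and library total times 1 factor per library (0.969 to 1.02), whose origin, like the strand setting, is not given in the sources used here. Table columns named Control, mt and CS were read as PCDH, IDH1mt and C269S by their names, with the replicate number.

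Genes were kept by filterByExpr and scaled by trimmed means (TMM) with R version 4.3.3 and its package edgeR version 4.0.16. The 9 libraries entered 1 quasi-likelihood fit with a mean per group, and p-values were adjusted by Benjamini and Hochberg over 16874 genes. The SE is the absolute log2 fold change over the square root of F. Alternatives were other scalings and filters, 6 libraries alone, a replicate block, each library left out, DESeq2 version 1.42.0, limma version 3.58.1 with voom or on log2(FPKM + 1) or log2(FPKM + 0.1), and stricter thresholds. Members and lists were chosen with earlier results of these data known. Named genes were all members, the called genes of the maturation list, P4HB and LOXL3, up to 4 genes with the lowest adjusted p of each other list and comparison, the 3 genes most like each of the 3 members with the lowest p over the groups, and genes that overlap members. ELN, ANKRD37, COL5A2 and PDK1 were named after their values were seen. Promoter windows came from RefSeq and were searched on both strands. With 3 libraries against 3, the spread between libraries limits the precision. The intervals give the uncertainty of a group difference estimated from that spread, and they cover no variation that these libraries did not sample. Low counts limit it further for LOXL4 and P4HA3.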

Additional observations from a re-analysis of the deposited data

How the results depend on the processing

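Over 21 alternatives, the 13 calls of a member in a comparison gave 273 values, which all kept their direction, and 233 kept the call. The 14 values not called stayed so in 293 of 294. The threshold of adjusted p under 0.01 and the test against a 1.5-fold change reuse the reported estimates. Direction could not change there, and no value could gain a call. DESeq2, limma-voom, DESeq2 size factors and the stricter filter gave the same member counts. Against a 1.5-fold change, 0 members were called higher and 1 lower (LOXL1) in IDH1mt against PCDH, 0 and 0 in C269S against PCDH, and 0 and 0 in C269S against IDH1mt. At an adjusted p under 0.01 the lower count was 1 in C269S against PCDH and 2 in C269S against IDH1mt. Limma on log2(FPKM + 1) or log2(FPKM + 0.1) called 0 higher and 1 lower in C269S against PCDH and 1 higher in C269S against IDH1mt, where LOXL2 lost its call as lower. The cause was not tested. With 1 library left out, the counts ranged from 1 to 2 lower in C269S against PCDH, 1 to 2 higher in C269S against IDH1mt and 2 to 4 lower there. Same-numbered libraries did not deviate together (correlations of -0.087 to 0.056), so the numbers were not taken as pairs. With the replicate block 3 members in place of 4 were lower in C269S against IDH1mt (P4HA2 at adjusted p = 0.0806), and no other member call changed. The block took the maturation genes to 3 higher and 4 lower in IDH1mt against PCDH (5 and 4 as reported), 0 and 2 in C269S against PCDH (1 and 4), and 1 and 1 in C269S against IDH1mt (2 and 1). Of genes called, 35.2% were higher in IDH1mt against PCDH with library size alone and 51.0% with TMM scaling, and 60.1% and 46.8% in C269S against IDH1mt. Over all alternatives but leaving out libraries, all genes called higher and lower ranged from 83 to 1262 and 36 to 1691 in IDH1mt against PCDH (1211 and 1164 as reported), 3 to 233 and 1 to 131 in C269S against PCDH (149 and 90), and 5 to 585 and 27 to 647 in C269S against IDH1mt (387 and 440). With 1 library left out, the counts of all genes ranged from 860 to 1574 and 745 to 1474 in IDH1mt against PCDH. In C269S against PCDH they fell to 65 and 38 without C269S replicate 1, with 85 to 92 and 40 to 49 without C269S replicate 2 or PCDH replicate 1 or 2, and stood at 548 and 355 without PCDH replicate 3. In C269S against IDH1mt they were 189 to 240 and 258 to 298 without any 1 IDH1mt library or C269S replicate 1 or 2, and 609 and 635 without PCDH replicate 3. Maturation genes called higher numbered 2 to 5 in IDH1mt against PCDH with 1 library left out. P4HA3 has no value here, since it was tested only without the filter.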
